A study of Mus musculus with 4 samples.

Results

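Mesenchymal stem cells (MSCs) of bone are recognised by a small set of genes that mark their identity. The set described here held Prrx1, Pdgfra, Pdgfrb, Ly6a, Eng, Thy1, Nt5e, Cd44 and Itgav, and chromatin accessibility was measured at each of them in MSCs kept in hypoxia or moved to normoxia. The members were all ATAC-seq peaks that overlapped the span of 1 of the 9 genes, from 10 kb before to 10 kb past it in the GENCODE M21 annotation of the mm10 genome. They numbered 93 of 128055 peaks, of which 13 were promoter peaks (within 1 kb of a start of a protein-coding transcript of the gene), 56 lay elsewhere in the gene body and 24 lay in the flanks.

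The cells came from the bone of wild-type male C57BL/6N mice aged 3-5 months. Both groups shared the isolation in hypoxia and a flow cytometry sort for CD45-/TER-119-/Sca-1+/CD140a+ cells, after which the population was split and cultured for a week in hypoxia (2% O2) or normoxia (21% O2). There were 2 libraries per group, each from 50000 cells. The study calls its ATAC-seq experiments biologically independent, but nothing in the labels ties a library to an animal, so the p-values measure the spread between these libraries. Ly6a encodes Sca-1 and Pdgfra encodes CD140a, so every cell had been chosen for the products of these genes before the oxygen level was changed. The other members were not used in the sort.

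ATAC-seq uses the Tn5 transposase, which cuts and tags DNA that is not covered by nucleosomes, so a peak marks open chromatin, typically an active promoter or enhancer. Prrx1 is a homeobox transcription factor of limb and skeletal mesenchyme. Pdgfra and Pdgfrb are receptor tyrosine kinases for platelet-derived growth factors, and Ly6a is a small membrane-anchored surface protein. Eng (CD105) is a co-receptor for TGF-β family ligands, Thy1 (CD90) is a surface glycoprotein, Nt5e (CD73) is the ectoenzyme that makes adenosine from AMP, Cd44 is the main receptor for hyaluronan, and Itgav is the αv integrin subunit.

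Sequences were taken for the promoters and peaks on which the results below turn. For the genes matched in the RefSeq promoter table (build GRCm38.p6, 6 of 9), the 250 bases before the start are given for Itgav and Cd44, whose promoter peaks were called lower in normoxia, for Eng, whose promoter peak had the highest fold change of the 13, and for the sort antigen Pdgfra. The 300 bases at the centre of the called Cd44 intronic peak and of the called peak downstream of Prrx1 follow. Each is written 5′ to 3′. Capitals mark matches, on either strand, to TGANTCA (AP-1), ACGTG (the core of the hypoxia-inducible factor motif), TGTGGT (RUNX), TAATTA (homeodomain), GGAATG (TEAD), GGGCGG (SP/KLF), CCAAT or TATAAA.
Itgav promoter, chr2:83724147-83724396, plus strand: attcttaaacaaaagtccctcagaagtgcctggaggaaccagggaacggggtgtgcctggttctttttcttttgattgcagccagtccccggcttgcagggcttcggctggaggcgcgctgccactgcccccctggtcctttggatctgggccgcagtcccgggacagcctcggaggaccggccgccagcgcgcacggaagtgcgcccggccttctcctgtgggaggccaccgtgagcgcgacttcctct
Cd44 promoter, chr2:102901666-102901915, minus strand: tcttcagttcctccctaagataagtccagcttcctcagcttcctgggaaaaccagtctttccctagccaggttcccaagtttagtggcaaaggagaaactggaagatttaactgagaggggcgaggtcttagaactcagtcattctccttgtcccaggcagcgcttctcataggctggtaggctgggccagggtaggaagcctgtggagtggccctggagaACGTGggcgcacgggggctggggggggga
Eng promoter, chr2:32646345-32646594, plus strand: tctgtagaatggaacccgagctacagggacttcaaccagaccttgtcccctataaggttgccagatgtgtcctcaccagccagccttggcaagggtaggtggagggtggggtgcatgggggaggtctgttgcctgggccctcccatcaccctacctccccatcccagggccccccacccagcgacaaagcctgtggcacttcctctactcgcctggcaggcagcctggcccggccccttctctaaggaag
Pdgfra promoter, chr5:75152001-75152250, plus strand: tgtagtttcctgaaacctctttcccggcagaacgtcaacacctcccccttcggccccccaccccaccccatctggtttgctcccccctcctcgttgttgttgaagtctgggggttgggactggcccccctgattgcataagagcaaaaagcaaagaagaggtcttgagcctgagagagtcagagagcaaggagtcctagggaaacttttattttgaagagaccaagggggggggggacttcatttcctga
Cd44 intronic peak, chr2:102881451-102881750, plus strand: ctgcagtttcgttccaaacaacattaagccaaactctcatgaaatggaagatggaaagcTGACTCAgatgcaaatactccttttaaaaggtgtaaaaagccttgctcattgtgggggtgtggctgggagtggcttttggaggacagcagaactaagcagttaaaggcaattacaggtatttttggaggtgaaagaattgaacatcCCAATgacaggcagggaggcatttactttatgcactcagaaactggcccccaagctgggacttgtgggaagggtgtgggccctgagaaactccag
Prrx1 downstream peak, chr1:163242451-163242750, plus strand: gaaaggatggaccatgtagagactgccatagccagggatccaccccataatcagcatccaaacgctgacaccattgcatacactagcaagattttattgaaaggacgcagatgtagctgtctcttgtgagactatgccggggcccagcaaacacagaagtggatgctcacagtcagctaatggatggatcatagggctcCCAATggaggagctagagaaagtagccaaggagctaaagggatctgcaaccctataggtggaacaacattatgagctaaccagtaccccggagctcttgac
The Itgav promoter was the richest in CpG of these, with 18 CpG dinucleotides and a GC content of 64.4%, against 4 CpG and 62.4% at Eng and 4 CpG and 54.4% at Pdgfra. Of the motifs searched, the 4 promoters held only 1 match, ACGTG at position 222 of the Cd44 sequence, a motif present in 16.6% of the 32851 RefSeq promoters of the same length. The Cd44 intronic peak held TGACTCA at position 60. The Prrx1 downstream peak was mostly repeat sequence, with 92.6% of its bases soft-masked against a median of 15.4% over the members. Among the 300-base centres of the 93 member peaks, TGANTCA occurred in 17.2% (20.6% of all peaks), ACGTG in 16.1% (14.9%), TGTGGT in 20.4% (26.3%), TAATTA in 4.30% (6.98%), GGAATG in 17.2% (21.3%), GGGCGG in 7.53% (9.67%), CCAAT in 35.5% (33.5%) and TATAAA in 21.5% (16.8%). These are matches to letters and not binding sites.

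The libraries held 26680936 to 29965523 reads. The value of a peak is the number of its reads per 10000000 reads of the library, and it is not divided by the width of the peak. Nuclear peaks held 49.2% and 53.2% of the reads in hypoxia and 31.0% and 35.2% in normoxia, so that the deposited value of the median peak was lower in normoxia by a log2 fold change of -0.44. The relative log expression (RLE) scaling that the study used removes this shift (median -0.0039), and fold changes below are after it, as normoxia over hypoxia on the scale of log2(value + 1) with their standard error (SE). A peak was called at a false discovery rate (FDR, the Benjamini-Hochberg adjusted p of limma over all 128055 peaks) under 0.01. Values given per library are as deposited. Mitochondrial peaks held 7.77% and 9.13% of the reads under hypoxia against 1.497% and 2.34% under normoxia. The part that these differences in library composition have in the results was not tested.

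The labelled cell type was checked at the promoters of marker genes. All 9 genes had a promoter peak in both conditions. Of the blood cell markers, Ptprc (CD45), Itgam, Cd3e and Hba-a1 had no promoter peak. Spi1 had 1, with values of 14.9 and 10.2 under hypoxia against 7.87 and 13.0 under normoxia, which overlapped. Of 5 endothelial markers, Cdh5 and Emcn had no promoter peak, and the peaks of Pecam1, Kdr and Tek summed to 92.7 and 96.6 under hypoxia against 58.5 and 75.4 under normoxia. Per kb of width, Tek had 35.4 and 32.9 in hypoxia, above every member but Itgav in the levels given below. Kdr (19.3 and 20.9) and Spi1 (21.2 and 14.6) were above Eng and the Ly6a piece at the main start. The Pecam1 peaks had 9.10 and 12.6, and 13.6 and 18.7. The level per kb thus did not set these markers apart from the members. None of the peaks of Spi1, Pecam1, Kdr and Tek was called by limma, edgeR or DESeq2, and none had an unadjusted limma p under 0.05.

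To compare the genes with each other, the value was divided by the width of the peak at the main start site. In hypoxia Itgav had the highest level, 63.0 and 66.4 reads per kb, and Eng the lowest, 8.33 and 5.10. Between them came Pdgfrb (30.6 and 31.3), Pdgfra (32.2 and 28.8), Cd44 (25.5 and 27.1), Thy1 (23.5 and 26.8), Nt5e (21.9 and 20.3), Prrx1 (16.6 and 21.6) and Ly6a (11.9 and 11.1). The neighbours Pdgfrb and Pdgfra, Cd44 and Thy1, and Nt5e and Prrx1 overlapped in hypoxia. In normoxia Itgav was again first, at 25.2 and 31.7 reads per kb. The Ly6a peak had 3.07 and 1.52, and the Eng peak 6.83 and 9.23. The place of Ly6a depends on how its peaks were divided. Its peak at the main start is a piece of 1100 bases that the caller found in hypoxia only, and when the 4 abutting pieces there were joined, an alternative chosen after seeing the data, the level was 18.8 and 20.7 reads per kb under hypoxia against 8.92 and 11.4 under normoxia. That was above Eng in hypoxia and overlapped it in normoxia. The median over all 17661 promoter peaks was 29.5 and 30.5 under hypoxia against 16.9 and 19.1 under normoxia, so 6 of the 9 genes were below it in every library and 2, Itgav and Pdgfrb, were above it in every library. The level per kb also depends on how far a peak extends. The peaks at the main starts ran from 1100 bases (Ly6a) to 21000 bases (Cd44), and the median width of all promoter peaks was 2200 bases.

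**Figure D1:**
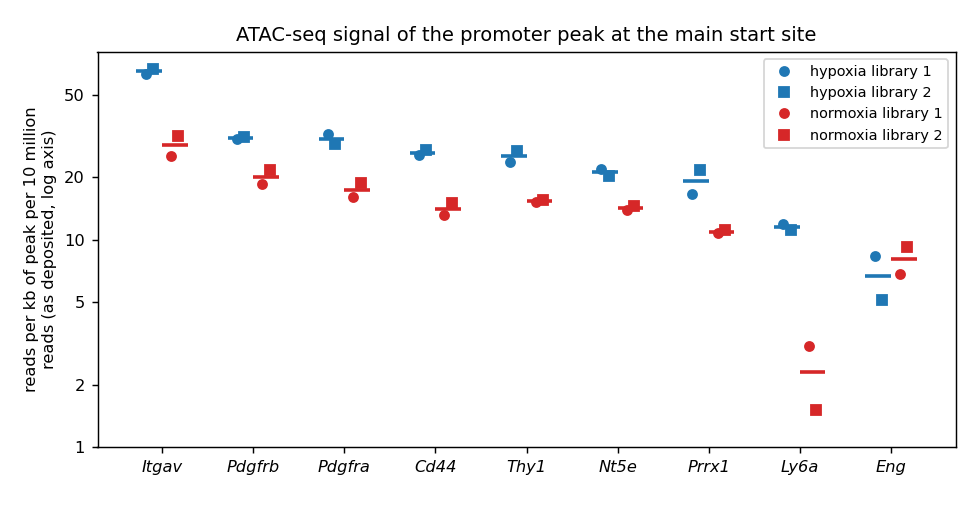
Deposited ATAC-seq value per kb of the promoter peak at the main start site (log axis) for the 9 genes, with 1 point per library and a bar at the mean of each group. Itgav is highest in both groups, the Ly6a piece at the main start falls from 11.9 and 11.1 to 3.07 and 1.52, and the Eng libraries overlap between the groups.

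Of the 93 peaks, 6 (6.45%) were called lower in normoxia, against 4.57% of all peaks, and 0 were called higher, against 1.77%. Of the 6, 4 were pieces that the caller assigned to hypoxia only, on the same libraries. Such pieces made up 16.1% of the members and 6.84% of all peaks, so the shares compare unlike mixes of peaks. At an unadjusted limma p under 0.05, 22 of the 93 were lower and 4 higher, but the share of all peaks at this cutoff was not counted. edgeR on the recovered reads called 8 lower (5.70% of all peaks) and 0 higher (2.54%), and DESeq2 called 2 lower (2.02%) and 0 higher (0.212%) while giving no adjusted p to 44 of the 93. The median fold change of the members was -0.18, with 63 negative and 30 positive. After RLE scaling the groups were apart, with normoxia below at 46 peaks and above at 13, where the shares over all peaks were 29.6% and 27.4%. As deposited, the corresponding numbers were 71 and 1, against 59.5% and 6.94% of all peaks. The peaks of these genes held 0.0996% and 0.101% of the nuclear peak signal in hypoxia and 0.0993% and 0.0960% in normoxia, so the share of signal at the identity genes moved little while the deposited values fell. Other scalings gave other counts. As deposited, 35 members were called lower (24.0% of all peaks) and 0 higher (0.391%), with cyclic loess 3 lower (1.31%) and 3 higher (1.42%), and with the libraries set to equal totals over peaks 1 lower (0.842%) and 4 higher (6.87%).

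By position, 3 of 13 promoter peaks were called lower (23.1%, against 16.7% of all promoter peaks), 2 of 56 gene body peaks (3.57%, against 2.32%) and 1 of 24 flanking peaks (4.17%, against 3.29%). The median fold change was -0.31 at promoters, -0.14 in gene bodies and -0.19 in flanks, where the medians over all peaks of the same class were -0.27, 0.05 and 0.02. A cyclic loess scaling, which also levels the dependence of fold change on signal, brought the promoter median of the members to 0.03 and their overall median to -0.10. The medians over all promoter peaks and over all peaks were then -0.07 and -0.0047. Of the called peaks, 2 lay at Cd44 and 1 each at Prrx1, Pdgfrb, Ly6a and Itgav. None lay at Pdgfra, Eng, Thy1 or Nt5e, which had 9, 9, 3 and 8 peaks in turn.

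**Figure D2:**
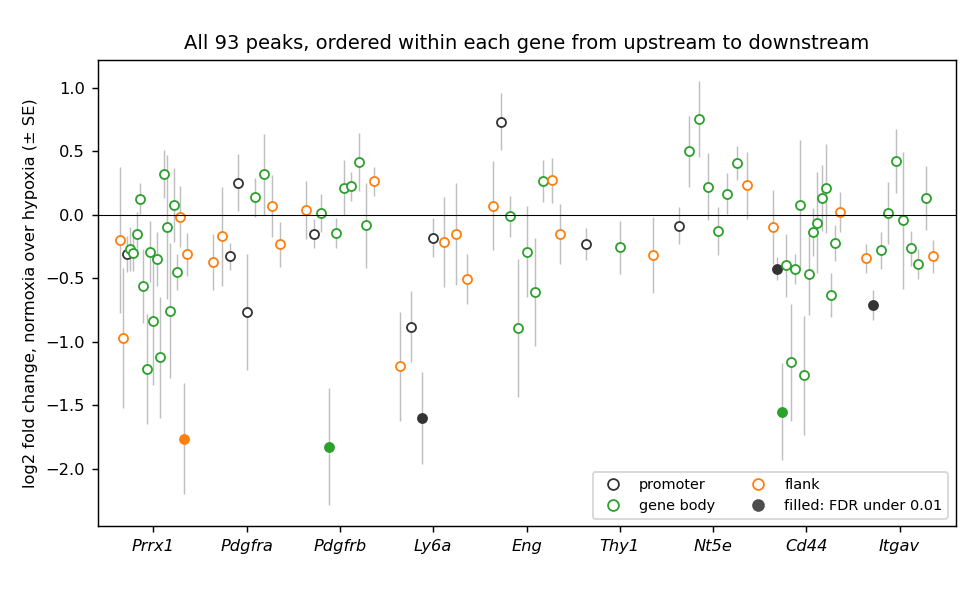
Log2 fold change (normoxia over hypoxia, RLE-scaled) of each of the 93 peaks, grouped by gene and coloured by position, with bars of 1 SE on each side. The 6 filled points, all below 0, are the called peaks, and all other peaks lie between -1.27 and 0.75.

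Of the 93 peaks, the promoter peak of Itgav had the lowest FDR. This peak (chr2:83722801-83726400), which covers the main start, had values of 227 and 239 under hypoxia against 90.7 and 114 under normoxia. Both normoxia libraries were well below both hypoxia libraries, with a fold change of -0.71 ± 0.12 (FDR 1.3e-04). The fold change was negative under every scaling tried and was called by edgeR and DESeq2, but with cyclic loess it was -0.38 at an FDR of 0.017. The strongest peak per kb of the whole set lay 8897 bases upstream of an Itgav start (chr2:83712901-83715500), at 89.2 reads per kb in hypoxia and 50.2 in normoxia. Its values were 204 and 260.1 under hypoxia against 119 and 142 under normoxia, which did not overlap, and its fold change of -0.34 ± 0.11 was not called (FDR 0.04) and was 0.00 with cyclic loess. The peak past the 3′ end of Itgav also covers the promoter of the neighbouring gene Fam171b, so its signal cannot be given to either gene.

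At Cd44 the signal formed a near-continuous block over the promoter and the start of the gene. The promoter peak spanned 21000 bases (chr2:102881901-102902900), with values of 535 and 568 under hypoxia against 275 and 316 under normoxia. The groups did not overlap, and the fold change of -0.43 ± 0.09 was called (FDR 0.0017), also by edgeR and DESeq2, but it was 0.05 with cyclic loess, and -0.14 and not called when the libraries were set to equal totals over peaks. Directly downstream of it in the gene, an intronic piece of 600 bases (chr2:102881301-102881900), whose sequence is printed above, had values of 9.91 and 21.8 under hypoxia against 1.499 and 5.67 under normoxia. Its fold change was -1.55 ± 0.38 (FDR 0.006), and the hypoxia libraries stood far apart but did not overlap those of normoxia. Another Cd44 peak over an exon farther into the gene (chr2:102827801-102829700) had values of 56.97 and 62.9 under hypoxia against 30.4 and 24.7 under normoxia, with a fold change of -0.63 ± 0.17 that just missed the threshold (FDR 0.013) and was called by edgeR. When the pieces that abut each other were joined before the fit, an alternative chosen after seeing the data, the Cd44 block became a region of 33300 bases with values of 776 and 823 under hypoxia against 398 and 444 under normoxia. It was called lower (-0.45 ± 0.08, FDR 2.0e-04), as were 5.11% of all regions so joined, and 2.36% were called higher.

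Ly6a, the gene of the sort antigen Sca-1, lay in a cluster of 4 abutting pieces. The piece over the main start (chr15:74997701-74998800) had values of 13.1 and 12.2 under hypoxia against 3.37 and 1.67 under normoxia. Both normoxia libraries were far below both hypoxia libraries, and the fold change was -1.60 ± 0.36 (FDR 0.0029) and negative under every scaling tried. The next piece upstream (chr15:74998801-74999500) had 25.8 and 18.02 under hypoxia against 5.62 and 11.3 under normoxia and a fold change of -0.88 ± 0.28 that was not called (FDR 0.031). The piece over the gene itself (chr15:74994601-74997700) held most of the signal, 64.4 and 82.6 under hypoxia against 41.6 and 51.1 under normoxia, and its fold change of -0.18 ± 0.15 was not called and became 0.11 at equal totals. The strongest other peak of Ly6a lay downstream (chr15:74988201-74990300), with values of 41.4 and 38.4 under hypoxia against 16.5 and 24.0 under normoxia and a fold change of -0.51 ± 0.20 (FDR 0.08). All 7 peaks had negative fold changes. Joined into 1 region of 5800 bases, the 4 pieces gave 109 and 120.0 under hypoxia against 51.7 and 66.1 under normoxia, a fold change of -0.48 ± 0.14 that was not called (FDR 0.012).

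**Figure D3:**
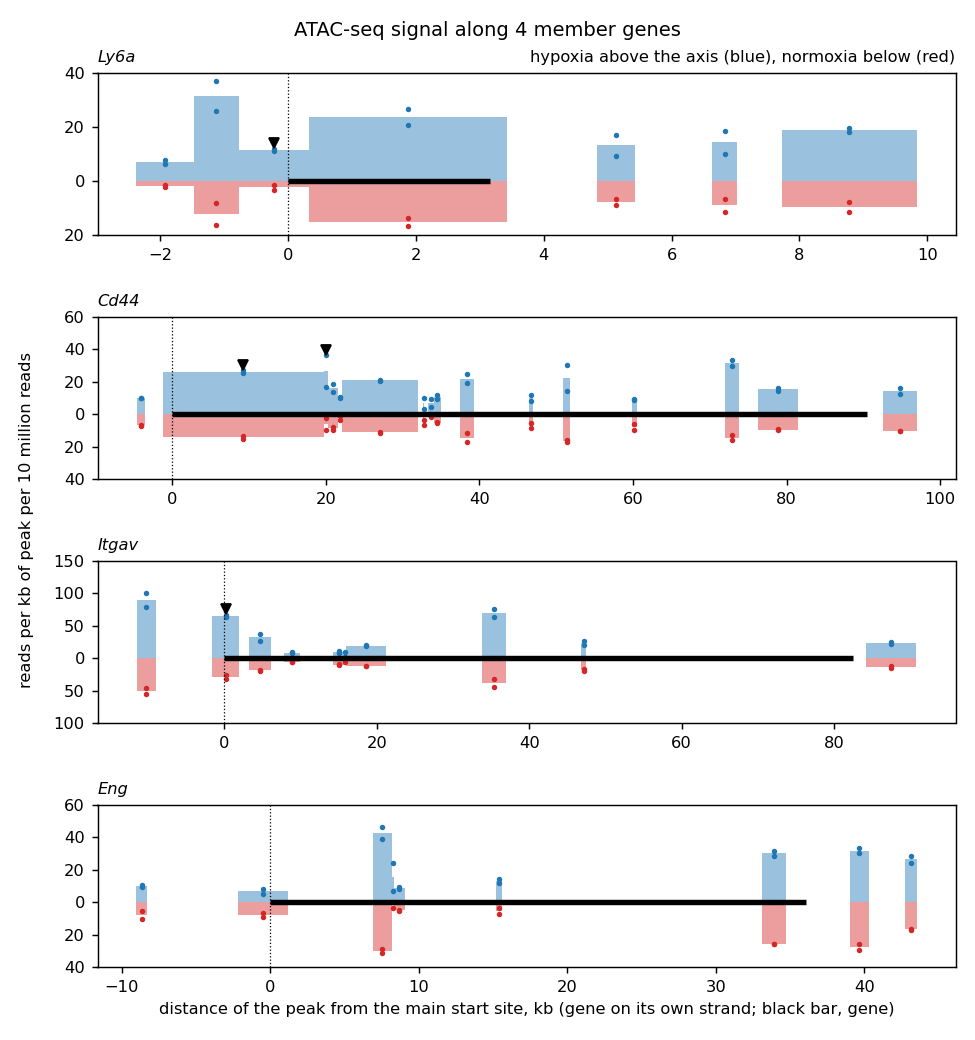
Mean value per kb of each peak along Ly6a, Cd44, Itgav and Eng, drawn upward for hypoxia (blue) and downward for normoxia (red) against the distance from the main start, with points for the single libraries and black triangles over the peaks called lower. The called Ly6a piece, at a mean of 11.5 and 2.29 reads per kb, sits in a dip between stronger pieces, and at Eng the promoter peak (6.71 and 8.03) is much weaker than the intronic peak downstream of it (42.6 and 30.2).

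At the promoters of the PDGF receptors no peak was called. The promoter peak of Pdgfra (chr5:75148201-75158600), the sort antigen CD140a, spanned 10400 bases and had values of 334 and 299 under hypoxia against 166 and 196 under normoxia. The groups did not overlap, and the fold change of -0.33 ± 0.11 was not called (FDR 0.036) and was 0.07 with cyclic loess. Its 2 further promoter pieces at alternative starts had fold changes of 0.25 ± 0.23, negative only in the values as deposited (-0.20), and -0.77 ± 0.46. A peak upstream of Pdgfra (chr5:75142801-75144000) had 27.96 and 27.2 under hypoxia against 13.1 and 17.4 under normoxia and was not called (-0.37 ± 0.22, FDR 0.26). At Pdgfrb the promoter peak (chr18:61042801-61049800) had values of 214 and 219 under hypoxia against 129.7 and 152 under normoxia. Its fold change of -0.15 ± 0.11 was not called (FDR 0.4) and was positive with cyclic loess (0.20) and at equal totals (0.14). The called Pdgfrb peak was a piece of 200 bases in an intron (chr18:61055301-61055500) with values of 10.6 and 8.50 under hypoxia against 3.00 and 0.334 under normoxia, a fold change of -1.83 ± 0.46 and an FDR of 0.0068. It sat between 2 wider pieces, with fold changes of 0.01 and -0.14 that were not called, and the region of 10200 bases that joined all 3 changed by -0.14 ± 0.11 (FDR 0.44).

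Prrx1, the only transcription factor of the set, had the most peaks, 21, and only 11.9% to 13.8% of its signal at the promoter. The promoter peak (chr1:163309901-163315200) had values of 88.1 and 114 under hypoxia against 56.97 and 58.7 under normoxia, which did not overlap, and a fold change of -0.31 ± 0.14 (FDR 0.13). The strongest peak of the gene per kb, over an exon (chr1:163251301-163254000), had 96.96 and 102 under hypoxia against 53.6 and 50.4 under normoxia and -0.45 ± 0.14 (FDR 0.027). Neither was called. The called peak lay past the 3′ end of the gene (chr1:163242201-163243000), in the repeat sequence described above, with values of 6.37 and 9.52 under hypoxia against 1.499 and 0.667 under normoxia and a fold change of -1.76 ± 0.44 (FDR 0.0064). The region of 5500 bases that joined it to its neighbours was not called (-0.33 ± 0.15, FDR 0.12).

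At Eng, Thy1 and Nt5e no peak was called. The Eng promoter peak (chr2:32644401-32647800) had values of 28.3 and 17.3 under hypoxia against 23.2 and 31.4 under normoxia. These overlapped as deposited, and after scaling the fold change was 0.73 ± 0.23, the highest among the 13 promoter peaks but not called (FDR 0.026). When the libraries were set to equal totals it was 1.01 and called (FDR 0.0029), as were 6.87% of all peaks. The strongest Eng peak per kb lay in an intron (chr2:32653501-32654800), with 50.6 and 60.2 under hypoxia against 40.9 and 37.7 under normoxia and a fold change of -0.01 ± 0.16. The Thy1 promoter peak (chr9:44039401-44044600) had 122 and 139 under hypoxia against 79.1 and 80.8 under normoxia, and its fold change of -0.23 ± 0.13 was not called (FDR 0.23) and was 0.03 with cyclic loess. The strongest other Thy1 peak (chr9:44048301-44050000) had 27.2 and 31.6 under hypoxia against 14.99 and 20.4 under normoxia (-0.26 ± 0.21, FDR 0.44). The Nt5e promoter peak (chr9:88326901-88330800) had 85.3 and 79.2 under hypoxia against 54.3 and 56.7 under normoxia, with a fold change of -0.09 ± 0.14 that was positive with cyclic loess (0.10) and at equal totals (0.20). The strongest Nt5e peak covered the 3′ end of the gene (chr9:88371601-88374200), and with 84.2 and 92.5 under hypoxia against 74.6 and 95.4 under normoxia it was among the few that held their deposited value. Its fold change was 0.41 ± 0.13 (FDR 0.036), which was called higher with cyclic loess (0.64, FDR 0.0013) and at equal totals (0.70, FDR 4.8e-04), where 1.42% and 6.87% of all peaks were, and was -0.06 in the values as deposited.

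The peak caller assigned 15 of the 93 peaks (16.1%) to hypoxia only, against 6.84% of all peaks, and the rest to both groups. They lay at Prrx1 (6), Cd44 (3), Ly6a (2), Pdgfra, Pdgfrb, Eng and Itgav (1 each). All 15 directly abutted another peak, as did 97.4% of all hypoxia-only peaks, so each is a piece of a wider stretch of called peaks. They were 100 to 1100 bases wide, with 0 to 64 reads per library. All 15 had negative fold changes, from -1.83 to -0.04, and 4 were called lower, against 8.24% of all hypoxia-only peaks. The assignment was made on the same libraries, so the fold changes of these peaks are a description. These 4 were the called peaks at Prrx1, Pdgfrb and Ly6a and the intronic peak of Cd44, which leaves the promoters of Cd44 and Itgav as the called peaks that the caller found in both groups. The called peak at Ly6a overlaps the main start by itself, but in hypoxia it held 13.1 of the 163 and 12.2 of the 173 in the summed value of the gene.

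Calls at the member peaks were lost when a library was left out. How many calls over all peaks such a fit lost was not counted. Leaving out either hypoxia library, with the lone remaining one assumed to vary like the normoxia libraries, left 0 of the 6 called by limma, with FDR values of 0.17 to 0.37 and fold changes that stayed negative. Without normoxia library 2 the calls at Prrx1 (fold change -1.42), Pdgfrb (-0.95) and Ly6a were lost. Without normoxia library 1 the call at the Cd44 intronic peak was lost. Other member peaks gained a call in these fits, among them the Pdgfra promoter peak without normoxia library 2 (-0.38). The promoter peaks of Cd44 and Itgav were called without either normoxia library. At equal totals the calls at the Ly6a piece (FDR 0.0105), the Prrx1 peak (FDR 0.015), the Pdgfrb peak (FDR 0.017), the Cd44 intronic peak (FDR 0.017) and the Cd44 promoter peak (FDR 0.198) were lost. With cyclic loess, those at the Prrx1 peak (FDR 0.013), the Itgav promoter (FDR 0.017) and the Cd44 promoter (FDR 0.73) were lost. A limma fit with no trend and not robust called 0 of the 6 (FDR 0.094 to 0.22). With a pseudocount of 0.1 the calls at the Prrx1, Pdgfrb and Cd44 intronic peaks were lost (FDR 0.015, 0.021 and 0.016).

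To give each gene a single value, the values of all peaks in its span were summed, and the same was done for all 18176 protein-coding genes with a peak. In these sums the median fold change over all genes was -0.16, so differences are given beside that shift. Cd44, Itgav and Ly6a were called lower, 3 of the 9 genes, against 26.4% of all genes, and 0 were called higher by limma, against 2.42%. At an unadjusted limma p under 0.05, 6 were lower and 1 was higher, against 7642 lower and 1195 higher of all 18176 genes. edgeR called 0 lower (9.27% of all genes) and 2 higher (7.70%), Eng and Nt5e, and DESeq2 called 0 lower (2.95%) and 0 higher (1.92%). Both count models scaled the libraries on the sums, whereas limma used the factors of the peaks. The fold change of Prrx1 was -0.19 with limma and -0.03 with edgeR, and that of Nt5e was 0.19 and 0.36. For 9 genes, the share of all genes called lower by limma amounts to 2 or 3 genes, as was seen here.

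Ly6a had the lowest fold change of the 9 sums. Its values were 163 and 173 under hypoxia against 78.0 and 96.8 under normoxia, and the fold change of -0.47 ± 0.12 (FDR 4.5e-04) was -0.31 relative to the median gene. The sums of Cd44 were 1051 and 1156 under hypoxia against 580.2 and 636 under normoxia (-0.38 ± 0.07, FDR 5.5e-06), and those of Itgav were 996 and 1153 under hypoxia against 537 and 649.7 under normoxia (-0.38 ± 0.08, FDR 6.4e-06). Both were -0.22 relative to the median gene. With cyclic loess 0 of the 9 genes were called lower (7.69% of all genes were), with an FDR of 0.020 for Ly6a, 0.063 for Cd44 and 0.066 for Itgav, although these fold changes stayed negative. At equal totals 0 were called lower too (2.64%). Without hypoxia library 1 or 2, or without normoxia library 1, Ly6a was not called, and without hypoxia library 2 Itgav was not called. Without normoxia library 1, a member other than Ly6a, Cd44 and Itgav was called lower.

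The sums of Prrx1 were 683 and 825 under hypoxia against 477 and 465 under normoxia, with a fold change of -0.19 ± 0.08 (FDR 0.042). Those of Pdgfra were 546 and 508 under hypoxia against 303 and 352 under normoxia (-0.21 ± 0.09, FDR 0.045), and those of Thy1 were 159 and 189 under hypoxia against 101 and 109 under normoxia (-0.24 ± 0.11, FDR 0.071). These 3 genes did not pass the threshold and stood at -0.03, -0.05 and -0.08 relative to the median gene, and the fold changes of Prrx1 and Pdgfra turned positive with cyclic loess and those of all 3 at equal totals. Pdgfrb had 805 and 871 under hypoxia against 599 and 641 under normoxia (0.05 ± 0.08, FDR 0.66), Eng 209 and 209 under hypoxia against 170.2 and 168 under normoxia (0.17 ± 0.10, FDR 0.18) and Nt5e 290.2 and 315 under hypoxia against 235 and 263 under normoxia (0.19 ± 0.10, FDR 0.092). Their deposited sums were lower in normoxia in both libraries, as at the other genes, but by less than at the median gene (0.21, 0.34 and 0.36 relative to it). With cyclic loess, and likewise at equal totals, Pdgfrb, Eng and Nt5e were called higher, with loess fold changes of 0.27, 0.37 and 0.42, against 7.21% of all genes called higher with cyclic loess and 17.8% at equal totals.

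**Figure D4:**
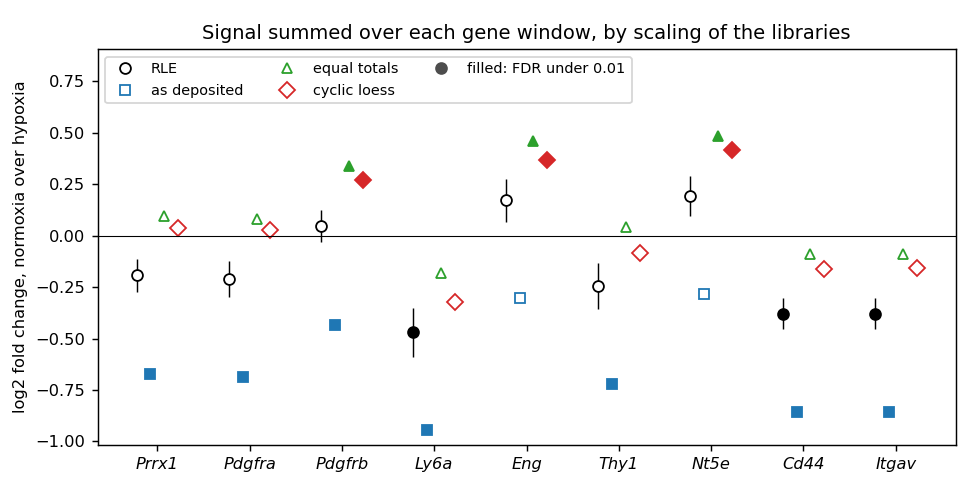
Log2 fold change (normoxia over hypoxia) of the summed signal of each gene span under 4 scalings of the libraries, filled where the FDR is under 0.01, with 1 SE for the RLE scaling. The order of the genes is alike under every scaling, with Ly6a, Cd44 and Itgav lowest and Eng and Nt5e highest, while the zero line moves, so that 7 genes are called lower as deposited (78.8% of all genes are, and 0.226% higher) and 0 lower with cyclic loess.

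By the distance between sums over the 4 libraries, the genes with the most similar profile to Ly6a were Suv39h1 (distance 0.0793 on the log2 scale), Cep19 (0.0900) and Mbd3l1 (0.0925). The likeness rests on 4 values per gene and includes the level.

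The partners of these genes and other stromal genes were examined at their promoters. Of 40 such genes in 6 lists, 38 had a promoter peak, and of their 49 promoter peaks 9 (18.4%) were called lower, near the 16.7% of all promoter peaks, and 0 higher, against 0.442%. At an unadjusted limma p under 0.05, 19 were lower and 4 higher, while edgeR called 10 lower and 0 higher and DESeq2 6 lower and 0 higher. The share of all promoter peaks was not counted for any of these, so they cannot be set against it. Among 17 other stromal markers, Lepr, the leptin receptor of perivascular marrow stroma, had no promoter peak. In this list 3 of 20 peaks were called lower, those of the transcription factors Twist1 (215 and 209 under hypoxia against 105 and 97.8 under normoxia, fold change -0.58 ± 0.12) and Ebf3 (-0.49 ± 0.11) and of the adhesion molecule Alcam (-0.43 ± 0.11). Another promoter peak of Ebf3 was not called (0.06 ± 0.17). Of the 5 promoter peaks of the PDGF ligands, 0 were called by limma, edgeR or DESeq2, with an unadjusted limma p under 0.05 at 3 lower and 1 higher.

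Among the partners of endoglin, 1 of 4 peaks was called lower, that of the ligand Tgfb1 (248.8 and 275 under hypoxia against 113 and 141 under normoxia, fold change -0.57 ± 0.11), and Gdf2 had no promoter peak. In the adenosine pathway 1 of 8 was called lower, a peak with 196 and 203 under hypoxia against 95.9 and 112 under normoxia and a fold change of -0.46 ± 0.12. It covers a start of Entpd1 (CD39), which makes the AMP that Nt5e uses, and also the promoter of the neighbouring gene Tctn3, so its signal cannot be given to either gene. The promoter peak of Entpd1 alone was not called (-0.30 ± 0.17, FDR 0.24). Of the hyaluronan synthases, which make the ligand of Cd44, 2 of 3 were called lower, Has2 (189 and 209 under hypoxia against 97.1 and 94.4 under normoxia, fold change -0.57 ± 0.12) and Has1 (-0.64 ± 0.16). The peak of Has3 had 38.2 and 34.7 under hypoxia against 41.6 and 37.4 under normoxia, with a positive fold change of 0.58 ± 0.18 that was not called (FDR 0.024). Of the β subunits that pair with Itgav, 2 of 9 promoter peaks were called lower. That of Itgb8 had values of 205 and 233 under hypoxia against 63.0 and 77.8 under normoxia and a fold change of -1.15 ± 0.12 (FDR 1.9e-07), a larger difference than at Itgav itself, and a promoter peak of Itgb1 changed by -0.55 ± 0.12. The other promoter peaks of Itgb1 were not called, with fold changes of 0.33 ± 0.20, 0.25 ± 0.19 and -0.69 ± 0.54. With cyclic loess the fold changes of the 9 called peaks stayed negative, and only that of Itgb8 was called (-0.86, FDR 2.3e-06).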

How the data were processed

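ATAC-seq libraries of MSCs from mouse bone were grouped by the oxygen level in their titles, with 2 in hypoxia and 2 in normoxia. As the study's methods state, reads were aligned by the authors to mm10 with bowtie2 (local mode) and freed of duplicates with Picard. Peaks were called jointly on hypoxia and normoxia with chromstaR in differential mode, with a bin size of 300, a step of 100 and a mapping quality of at least 15, and the name of a peak gives its group or groups. The deposited signal per peak is called RPKM by the authors, but it was not divided by peak width. In every library 100% of the values were whole multiples (within 0.01) of 1 read per library total, scaled to 10000000 reads, and reads were recovered from them. The median peak held 43 and 48 reads in hypoxia and 33 and 40 in normoxia, so weak peaks rest on few reads. A read may be counted in more than 1 bin, so no counting interval is given.

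RLE size factors (1.14 and 1.24 in hypoxia, 0.81 and 0.89 in normoxia) were applied, and limma 3.58.1 (trend and robust, R 4.3.3) was fitted to log2(value + 1) over all 128055 peaks, as a two-sided test called at an FDR under 0.01. The pseudocount of 1 understates the change of weak peaks. For sums over gene spans limma used the same size factors, while edgeR and DESeq2 set their own scaling from the sums. Neighbouring genes can share peaks. On simulated data with 200 of 128055 peaks changed, 93% of changes of 4-fold and 45% of changes of 2-fold were recovered. In the simulated data 0 calls were false. The number of false calls when the share of reads in nuclear peaks differs between libraries, as it does here, was not tested. edgeR 4.0.16 (quasi-likelihood test) and DESeq2 1.42.0 on the recovered reads were alternatives, beside other scalings, a pseudocount of 0.1 or 5, leaving out peaks with a mean under 5, a threshold of 0.05, a fit with no trend and not robust, a replicate block, spans of 2 kb and leaving out each library.

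The genes, the lists of other genes and the tests were chosen with earlier results of these data known. The peaks named are every promoter peak of a member, its strongest other peak per kb, and up to 4 further called peaks; of the other lists, called promoter peaks are named. Other peaks and the joining of abutting peaks were added after their values were seen. Ly6a belongs to a family of similar genes, whose reads the mapping quality filter may lower. Motifs were searched in 300-base peak centres and 250-base RefSeq promoters. Nucleosome positions were not analysed here. Results for a few marker genes and for the genes most similar to Pdgfra are not reported here.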

Additional observations from a re-analysis of the deposited data

How the results depend on the processing

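The direction of many values here depends on the scaling. Of the 93 peaks, 6 were called lower with RLE scaling, 35 as deposited, 3 with cyclic loess and 1 at equal totals over peaks, and 0 were called higher with RLE scaling, 3 with cyclic loess and 4 at equal totals. For promoter peaks the calls lower were 3 with RLE, 9 as deposited, and 1 with cyclic loess and at equal totals. For the sums over gene spans they were 3 with RLE, 7 as deposited and 0 with cyclic loess and at equal totals, where 3 were called higher under each. The remaining settings moved some counts too. A pseudocount of 0.1 gave 3 peaks lower, and a fit with no trend and not robust gave 0 peaks, 0 promoter peaks and 0 sums. DESeq2 gave 2 peaks lower and 0 sums, and edgeR gave 0 sums lower and 2 higher, each with its own scaling of the sums. An FDR under 0.05 gave 13 peaks lower, 2 higher, 5 promoter peaks and 5 sums lower, and joining abutting peaks gave 3 regions lower. Shares over all peaks and genes were not counted at an FDR under 0.05, at that pseudocount or in the fit with no trend. Leaving out a library gave 0 to 8 peaks, 0 to 4 promoter peaks and 1 to 3 sums lower, and 0 higher.

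The fold changes that turned sign were, with cyclic loess, those of the promoter peaks of Pdgfra (0.069), Pdgfrb (0.20), Thy1 (0.032), Nt5e (0.10) and Cd44 (0.052), the Eng intronic peak (0.10), the upstream Itgav peak (0.0031) and the sums of Prrx1 (0.037) and Pdgfra (0.028). At equal totals they were the promoter peaks of Pdgfrb (0.14), Ly6a over the gene (0.11), Thy1 (0.060) and Nt5e (0.20), the Eng intronic peak (0.27), the Thy1 gene body peak (0.021) and the sums of Prrx1 (0.097), Pdgfra (0.081) and Thy1 (0.044). As deposited they were a Pdgfra promoter piece (-0.20), the Nt5e 3′ peak (-0.064) and the sums of Pdgfrb (-0.43), Eng (-0.30) and Nt5e (-0.28). Leaving out a library gave the Eng intronic peak -0.13 to 0.11 and the Nt5e promoter -0.20 to 0.015. The cause of these changes was not tested beyond the scaling itself. Under a pseudocount of 5, all 33 named values kept their direction and their side of the threshold.

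Replicate numbers are shared by the groups, but the labels do not say whether they mark pairs. Peak by peak, same-numbered libraries did not deviate together (correlation 0.011 over all peaks, 0.029 without peaks whose mean was under 5). With few reads per peak this cannot exclude pairing. Library 2 held the larger share of reads in nuclear peaks in both groups (53.2% against 49.2% in hypoxia, 35.2% against 31.0% in normoxia). With a replicate block, 9 peaks were called lower, 1 higher, 4 promoter peaks lower, 3 sums lower and 0 sums higher. The shares over all peaks and genes with the block were not counted. The peak called higher was the Eng promoter peak (FDR 0.0050), and the upstream Ly6a piece (FDR 0.0090) and the Cd44 exon peak (FDR 0.0029) were called lower by limma with the block and not without it. With 2 libraries per group, and 33 to 48 reads in the median peak, small differences at weak peaks could not be detected. Of simulated 2-fold changes 45% were recovered, and the weakest peaks were not among those changed.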

Other observations

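Ratios of summed signal between pairs of these genes do not change when each library is scaled by a single factor, though they do with cyclic loess, which depends on the signal. The pairs below were chosen after the values were seen, and they carry no test. The sum of Nt5e over that of Cd44 was 0.276 and 0.273 under hypoxia against 0.405 and 0.413 under normoxia, a difference of 0.57 on the log2 scale where the SD within groups was 0.016 (n = 2 each). The sum of Pdgfrb over that of Pdgfra was 1.47 and 1.72 under hypoxia against 1.98 and 1.82 under normoxia (difference 0.26, SD 0.12). The ratio of the sort antigens, Ly6a over Pdgfra, was 0.299 and 0.340 under hypoxia against 0.257 and 0.275 under normoxia (difference -0.26, SD 0.10). In each pair the groups did not overlap, but the share of all gene pairs for which this holds was not counted. A ratio shows that a pair of genes changed unequally, and not which of them changed.

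The GC content of the member peaks had a median of 45%, against 45.9% over all peaks, and their promoter peaks a median of 50.3%, against 52.0% over all promoter peaks. The median share of repeat-masked bases was 15.4% over the members and 13.8% over all peaks. Of the 93 peaks, 17 also overlapped another annotated gene.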
